A study of Bos taurus with 16 samples.

Results

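The respiratory chain of the mitochondrial inner membrane passes electrons from NADH and succinate to oxygen through complexes I to IV and stores the energy as a proton gradient, which complex V, the ATP synthase, uses to make ATP. A small set of its subunits is encoded by mitochondrial DNA and the rest by nuclear genes. Oxidative muscle fibres are rich in mitochondria, and heart and skeletal muscle carry their own isoforms of some complex IV subunits. The nuclear genes described here were chosen by their bovine gene symbols: NDUFA, NDUFB, NDUFC, NDUFS and NDUFV genes for complex I, SDHA to SDHD for complex II, UQCR genes and CYC1 for complex III, COX5 to COX8 genes for complex IV, and ATP5 genes for complex V. The rule found 83 of 34109 listed genes, of which 37 belonged to complex I, 4 to complex II, 9 to complex III, 15 to complex IV and 18 to complex V. Classification followed the symbol, so that NDUFA4, which is now usually counted as a complex IV subunit, stayed with complex I, the inhibitor ATP5IF1 stayed with complex V, and COX4I1 and NDUFAB1 fell outside the rule.

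RNA was sequenced from the round and the sirloin muscle of 8 newborn male Hanwoo calves, a Korean beef breed. The cows of 4 control calves received standard nutrition, labelled 100%. The cows of 4 treated calves received overnutrition, labelled 150%, in the middle and late part of pregnancy. Each calf gave 1 library per muscle, so that 16 libraries fell into 4 groups of 4, and muscle was taken right after birth, before the calves had received colostrum. Calves are named below by diet and replicate number, which is the same for both muscles of a calf. Whole muscle was used, in which fewer cells of a type and less RNA per cell cannot be told apart.

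Total counts per library ranged from 44473011 to 72446933, so that counting error was small for all subunit genes except COX6B2, COX7B2 and COX8C. The 7 skeletal muscle markers with a listed gene summed to 41662 to 77340 TPM (a level per transcript length and library total) per library. The 4 heart markers, of which NPPA was at 0, summed to 70.6 to 566 TPM. Their sum was highest in the round libraries of treated replicates 2 and 3, at 566 and 435 TPM, of which MYH6 alone gave 562 and 431 TPM. TNNT2, at 3.40 and 2.63 TPM, and TNNI3, at 1.07 and 0.637 TPM, lay there within the range of the other libraries. The sirloin library of treated replicate 4 stood apart: its 5 adipocyte markers, ADIPOQ, PLIN1, FABP4, LEP and CIDEC, summed to 3777 TPM, and to at most 15 TPM in each of the other 15 libraries. The sirloin library of treated replicate 2 and the round library of control replicate 2 were low in subunit transcripts. The 6 fibroblast markers summed to 2141 TPM in the round library of control replicate 2 and to 174 to 740 TPM in the other 15. Diet values that these libraries carry are given with and without them where they are named.

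Transcripts of the chain were among the most abundant of the muscle. The 83 genes made up 2.26% to 4.12% of all TPM in a library, and 81.9% of them were among the 500 genes of highest mean TPM. A mean of at least 1 TPM was reached by 80 of the 83 genes. The exceptions all belonged to complex IV and are described with it. Among the 80, mean TPM ran from 57.1 for COX6A1 to 1437 for COX8B, with a median of 359.6. The medians by complex were 230.4 TPM in complex I, 329 in complex II, 416 in complex III, 629 in complex IV and 535 in complex V.

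The summed level of each complex overlapped between the diets in both muscles. Complex I summed to 10293 ± 1646 TPM (SD, n = 4) in control and 11184 ± 1416 in treated round muscle, and to 9823 ± 514 and 9781 ± 2278 TPM in control and treated sirloin muscle. Complex V had the highest sum in each group, with 11263 ± 1307 and 12386 ± 1768 TPM in round muscle and 11181 ± 765 and 11281 ± 2518 TPM in sirloin muscle. Complex IV gave 6932 ± 1468 and 7526 ± 1043 TPM in round, and 6684 ± 506 and 6854 ± 1970.2 TPM in sirloin muscle. Complex III gave 4023 ± 577 and 4402 ± 675 TPM in round, and 3809 ± 242 and 3682 ± 933 TPM in sirloin muscle. Complex II gave 1423 ± 236 and 1669.8 ± 145 TPM in round, and 1535 ± 120.4 and 1539 ± 119.8 TPM in sirloin muscle. In each complex except complex II, treated sirloin muscle had the widest spread of the 4 groups. Without treated replicate 2, complexes I to V summed to 10808 ± 1205, 1558 ± 140, 4116 ± 415, 7721 ± 1143 and 12439 ± 1215 TPM (SD, n = 3) in treated sirloin muscle. Without control replicate 2, they summed to 10981 ± 1105, 1501 ± 217, 4303 ± 175, 7648 ± 391 and 11822 ± 830 TPM (SD, n = 3) in control round muscle.

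**Figure D1:**
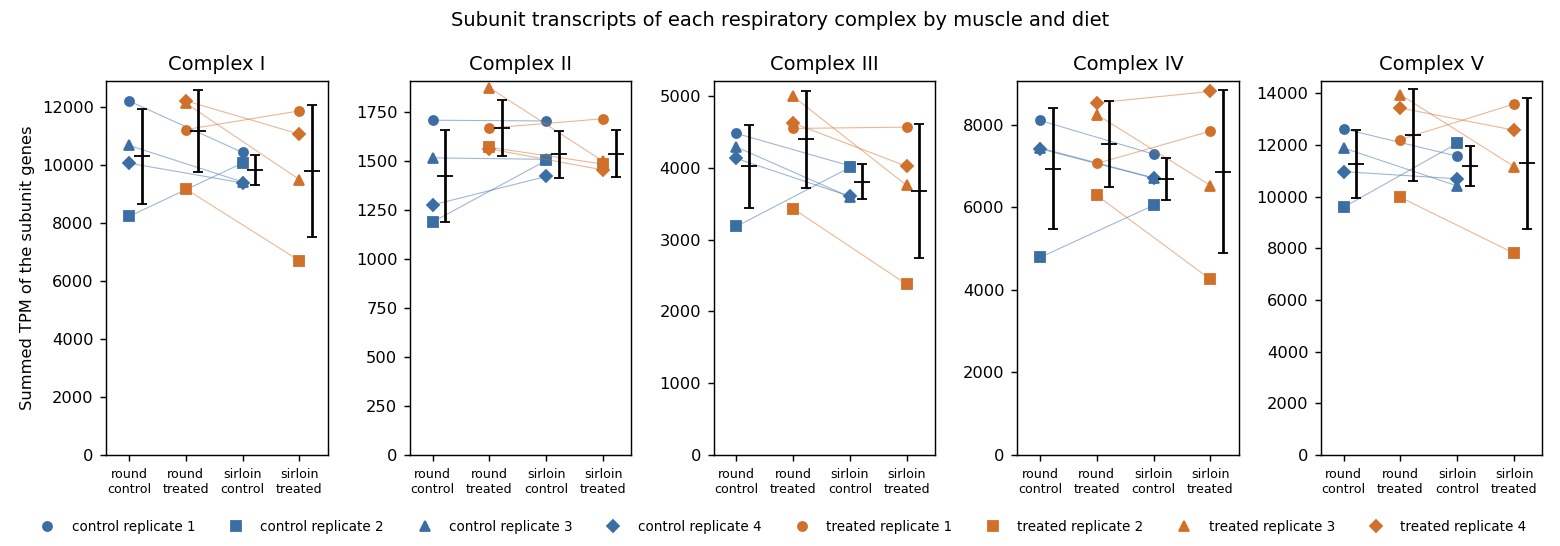
Summed TPM of the subunit genes of complexes I to V (vertical axis, from 0) in the 4 groups of muscle and diet, with 1 point per library, a line joining the muscles of a calf, and the mean and SD of each group in black. The sirloin library of treated replicate 2 is the lowest in complexes I, III, IV and V, at 6699.5, 2378, 4251 and 7809 TPM, and the round library of control replicate 2 is the lowest of its group in every complex.

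In the lowest library the median of the subunit genes was low in every complex, whereas some other libraries differed by complex. For 80 genes with a mean CPM of at least 1 (TMM-normalized counts relative to the library total), each library was set against the mean of its 16 log2 values, gene by gene. The median deviation of the sirloin library of treated replicate 2 was -0.84 on the log2 scale, where 67 of the 80 genes had their lowest value of all libraries and 2 lay above their own median. By complex, its median deviation was -0.78 in complex I, -0.65 in complex II, -0.98 in complex III, -0.94 in complex IV and -0.75 in complex V. The round libraries of control replicate 2 and treated replicate 2 followed, with -0.41 and -0.32, and with 2 and 3 of 80 genes above their median. By complex, the median deviation of control replicate 2 lay between -0.53 and -0.36. That of treated replicate 2 was -0.05 in complex II and lay between -0.42 and -0.28 in complexes I, III, IV and V. In the sirloin library of treated replicate 4 the median deviation was 0.25 in complex IV but -0.15 in complex III.

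At the other end, the round library of control replicate 1 had a median deviation of 0.39, with 78 of 80 genes above their median and 26 at their highest value. Treated replicates 3 and 4 reached 0.28 and 0.30 in round muscle, with 76 and 70 genes above. Over all 12315 genes with a mean CPM of at least 1, the library medians stayed between -0.04 and 0.03. High and low libraries occurred in both diets, and in both muscles of treated replicate 2 the subunit genes were low, apart from complex II in round muscle. The round library of control replicate 2 was the lowest in round muscle, while its sirloin library ranked 5 of 8.

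**Figure D2:**
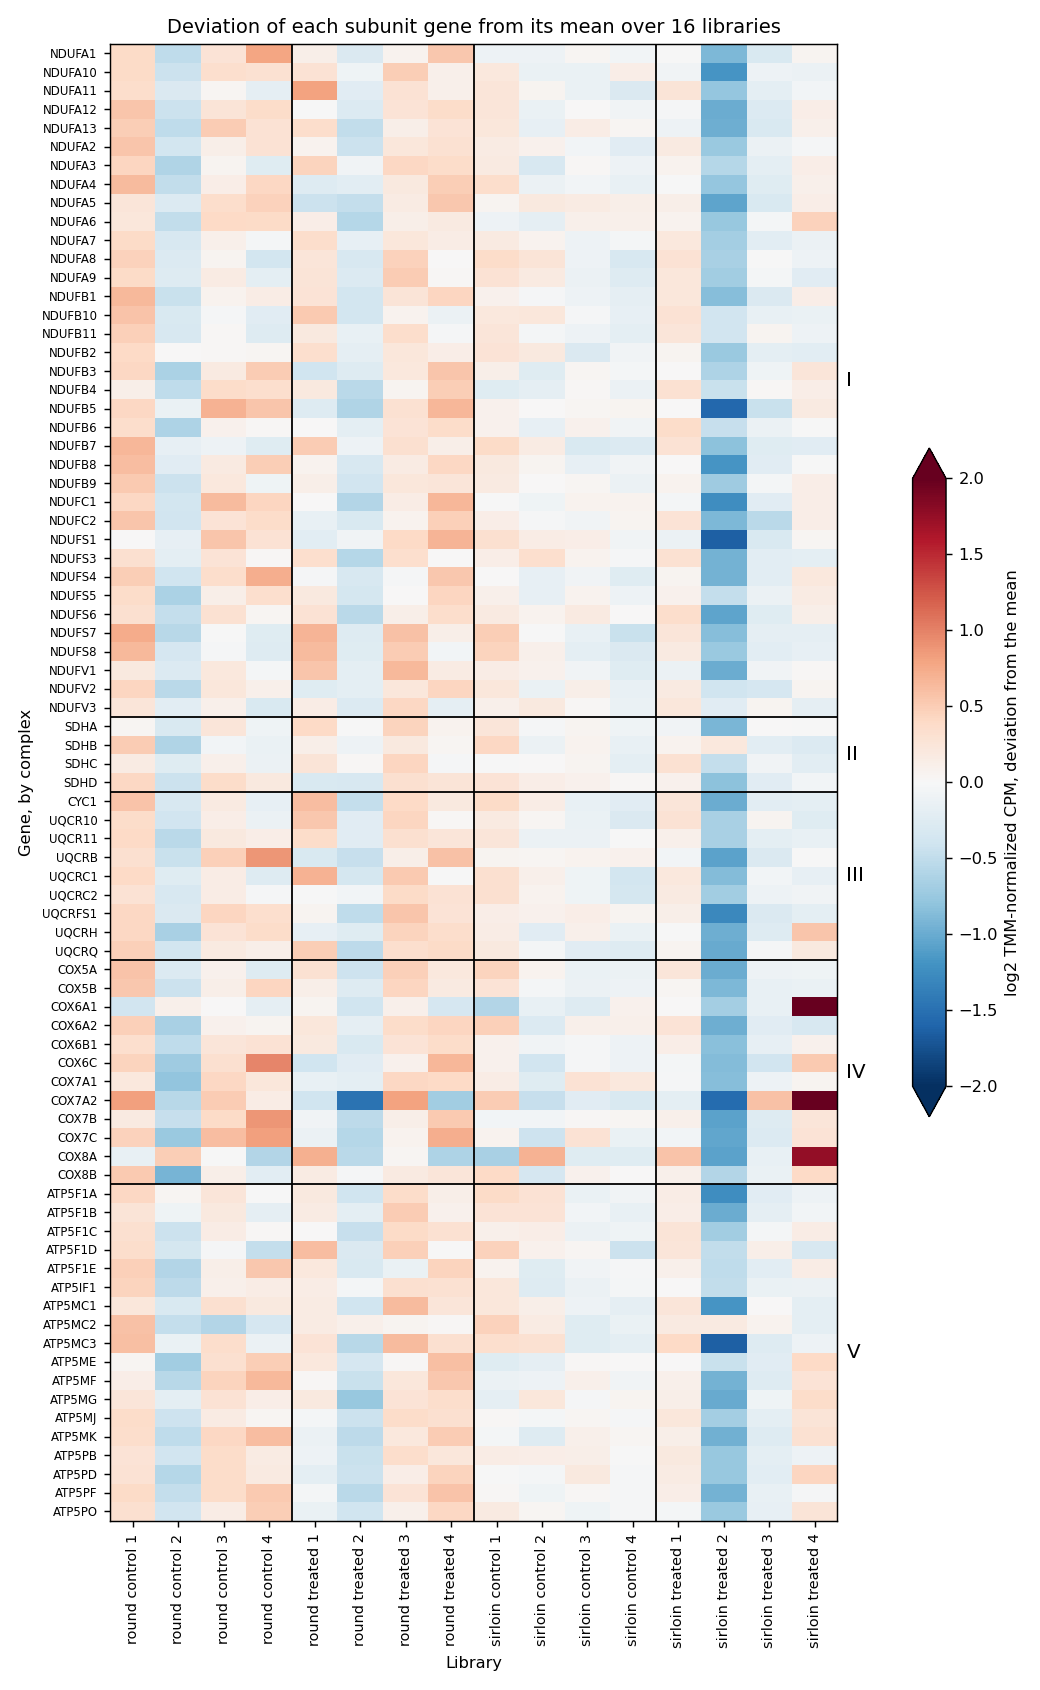
Deviation of 79 subunit genes (rows, by complex) from their own mean in 16 libraries (columns, by muscle and diet), as log2 TMM-normalized CPM, with red for higher and blue for lower values and the scale ending at 2 in each direction. The column of sirloin treated 2 is blue for all but SDHB and ATP5MC2, and 3 complex IV genes, COX6A1, COX7A2 and COX8A, stand out in sirloin treated 4.

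In round muscle no subunit gene passed the test between the diets. edgeR's quasi-likelihood test with Benjamini-Hochberg adjustment called 0 of 82 genes at an adjusted p of 0.05, against 0.0185% of 21677 genes tested, and DESeq2 and limma-voom also called 0. At an unadjusted p of 0.05 edgeR called 0 of the 82, against 4.41% of all genes, DESeq2 0 and limma-voom 1 (COX7B2). The log2 fold change of treated over control was positive for 47 and negative for 35 genes, with a median of 0.04 beside 0.02 for all genes. Its median standard error was 0.27, and the 95% interval lay within a doubling or halving, that is within 1 and -1 on the log2 scale, for 76 of the 82 genes. In TMM-normalized CPM the diets overlapped for every one of the 82 genes in round muscle, whereas they did not for 1.76% of all genes. The direction of the median rested on single calves: it was -0.14 without control replicate 2, and -0.08, -0.05 and -0.00450 without treated replicates 4, 3 and 1.

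In sirloin muscle most subunit genes had slightly lower values in treated calves, but none passed the test. edgeR called 0 of 82 genes at an adjusted p of 0.05, against 0.00918% of 21776 genes, and DESeq2 and limma-voom also called 0. At an unadjusted p of 0.05 edgeR called 0, against 3.91% of all genes, DESeq2 0 and limma-voom 1 (COX7B2). The log2 fold change was negative for 75 of the 82 genes, with a median of -0.17 beside 0.03 for all genes, and the 95% interval lay between -1 and 1 for 72. That count of negative values is a count of genes that move together in a library, not of independent observations. Without treated replicate 2 the median was -0.03, with 49 negative and 33 positive values. It was -0.23 without treated replicate 4, with 78 negative values, and -0.29 without treated replicate 1, with 76. With library totals as the only scaling the median of the subunit genes was 0.03 and that of all genes 0.21, so that the subunit genes stayed below the median of all genes under both scalings. In TPM the 83 genes together summed to 33033 ± 1613 (SD, n = 4) in control and 33138 ± 7643 in treated sirloin muscle, which was 36642 ± 3734 (SD, n = 3) without treated replicate 2.

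No subunit gene passed the test of a difference between the diet effects of the 2 muscles. edgeR called 0 of 82 genes at an adjusted p of 0.05, against 0% of 22877 genes, and DESeq2 and limma-voom also called 0. At an unadjusted p of 0.05 edgeR and limma-voom called the same gene, COX6B2, which had single-digit counts, DESeq2 called 0, and 2.78% of all genes passed. With the calf as a block, edgeR called 5 genes at an unadjusted p of 0.05, all with a lower log2 fold change in sirloin than in round muscle: NDUFA3, NDUFV1, SDHA, COX6A2 and ATP5F1D. Among all genes with a mean CPM of at least 1, 2.98% were lower by the same rule. None of the 5 passed after adjustment. In the fit without the block the median difference over the 82 genes was -0.16, with 66 negative values. Without control replicate 2 it was -0.04, with 48 negative values. It lay between -0.28 and -0.04 when each calf was left out. The blocked fit of this comparison was not run without single calves, so how far the 5 genes rest on a calf is not known.

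**Figure D3:**
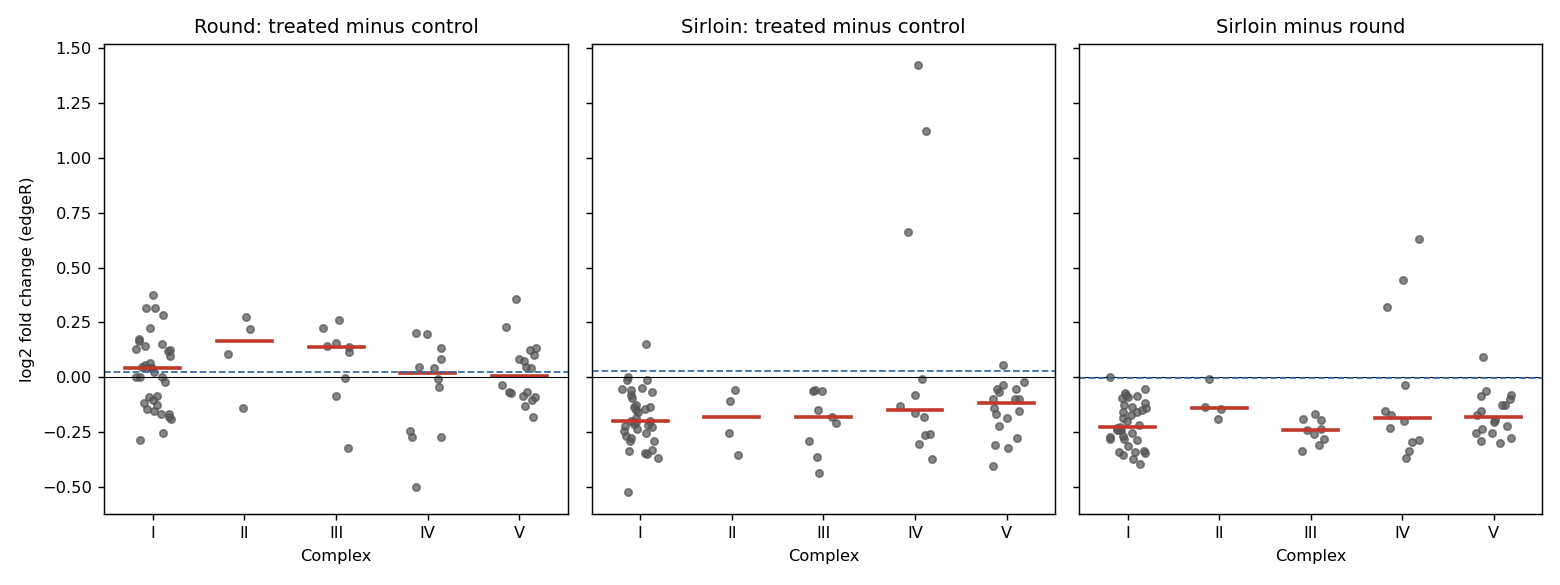
log2 fold change of each subunit gene (grey points, edgeR) by complex for the diets in round muscle, the diets in sirloin muscle, and sirloin over round muscle, with the median of each complex in red and the median of all genes tested as a dashed blue line. COX6B2 and COX7B2, with few counts, are not drawn. In sirloin muscle 3 complex IV genes lie above 0.6 and nearly all others below 0, and in the third panel most genes of every complex lie below 0.

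The muscles of a calf were then compared. Without regard to the calf, sirloin minus round gave a negative log2 difference for 77 of 82 subunit genes, with a median of -0.20 beside -0.00422 for all genes. edgeR called 0 of the 82 genes at an adjusted p of 0.05, against 0.0612% of 22877 genes, and DESeq2 and limma-voom also called 0. At an unadjusted p of 0.05 edgeR called 0, against 6.33% of all genes, DESeq2 1 and limma-voom 0. With the calf as a block, which the design warrants because both libraries come from 1 animal, 22 of 82 genes were lower in sirloin muscle at an unadjusted p of 0.05 and 0 were higher. Among all genes with a mean CPM of at least 1, 8.86% were lower by the same rule. None of the 82 passed after adjustment, where the smallest adjusted p of edgeR's quasi-likelihood test was 0.273.

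Of the 22 genes, 15 of 37 lay in complex I, 0 of 4 in complex II, 3 of 9 in complex III, 2 of 14 in complex IV and 2 of 18 in complex V. The genes move together in a library, so this split is not one of independent observations. It also changed with the calves in the fit. NDUFB5, an accessory subunit of the membrane arm, had the smallest p, with a log2 difference of -0.41 ± 0.14 (SE) and an unadjusted p of 0.0147 in edgeR's test. The 22 included the core subunits NDUFV1 and NDUFS1, which hold the NADH site and iron-sulfur clusters of complex I. They also held UQCRFS1, the Rieske iron-sulfur protein, and CYC1, cytochrome c1, of complex III.

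The count changed with the calves in the fit, from 4 to 42 of the 82 genes when each of the 8 calves was left out. Without control replicates 1 to 4 the blocked fit called 8, 42, 6 and 4 genes as lower at an unadjusted p of 0.05, against 9.26%, 7.76%, 7.23% and 7.21% of all genes with a mean CPM of at least 1. Without treated replicates 1 to 4 it called 31, 7, 9 and 17, against 8.93%, 7.7%, 7.04% and 11.9%. The count of 4 of 82 is below the share of all genes in the same fit. None passed after adjustment in these fits, and the median log2 difference stayed between -0.29 and -0.18.

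Calf by calf, the pattern was shared by all but a pair of animals. The median sirloin minus round difference over the 82 genes was -0.24, -0.24 and -0.18 on the log2 CPM scale in control replicates 1, 3 and 4, and -0.50, -0.44 and -0.26 in treated replicates 2, 3 and 4. Treated replicate 1 was near 0, at -0.02, with 42 genes lower and 39 higher in sirloin muscle. Control replicate 2 went the other way, at 0.39, with 80 of 82 genes higher in sirloin muscle. The medians of all genes with a mean CPM of at least 1 were between -0.05 and 0.04 in every calf.

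Of the 80 subunit genes with a mean CPM of at least 1, 29 were lower in sirloin muscle in at least 7 of 8 calves, against 9.06% of 12315 genes. Complex I gave 18 of 37 and complex III 5 of 9, whereas complex II gave 0 of 4, complex IV 2 of 12 and complex V 4 of 18. No subunit gene was lower in sirloin muscle in all 8 calves. As control replicate 2 had 2 of 82 genes lower, the rule mostly asked for lower values in all other calves. Among those was treated replicate 1, with 42 genes lower. The genes move together in a library, so these counts are not of independent observations. In the fit without the calf as a block, the slow fibre markers, 9 genes of the oxidative fibre type, had a median log2 difference of -0.22. Of them 1 gene, MYL3, was lower in sirloin muscle at an unadjusted p of 0.05. Their sum was highest in the round library of treated replicate 2, at 84955 TPM. The 10 fast fibre markers had a median of 0.0093, with 1 gene higher by that rule. Among these, PVALB was at 51.0 TPM in the sirloin library of treated replicate 4 and at most 0.497 TPM elsewhere. The part of the fibre markers in the difference of the subunit genes was not tested.

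**Figure D4:**
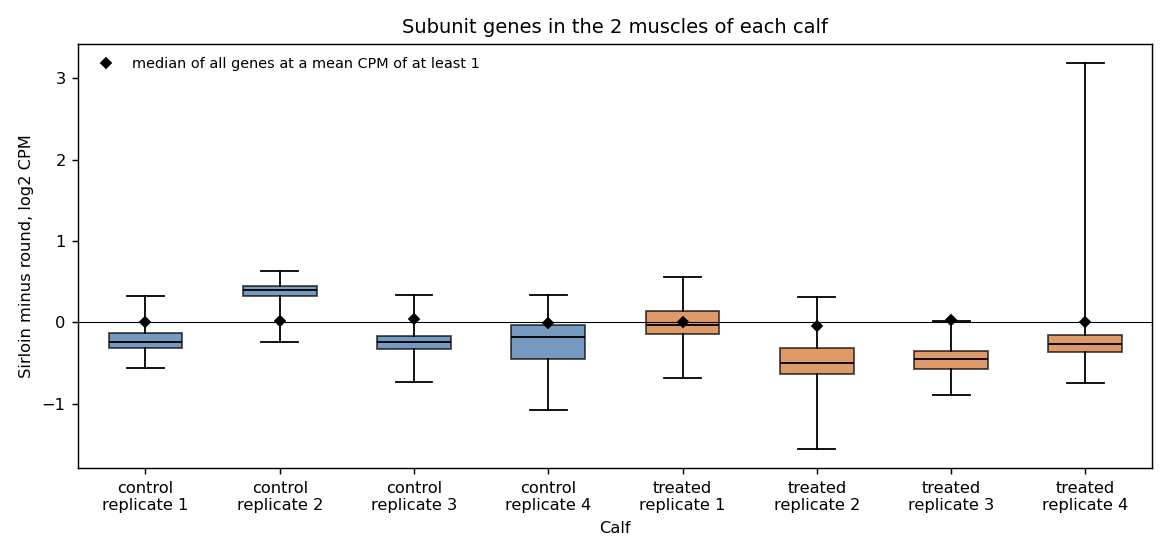
Sirloin minus round difference (log2 TMM-normalized CPM) of the subunit genes in each of 8 calves, blue for control and orange for treated, with boxes for the quartiles, a line for the median and whiskers to the lowest and highest gene, and black diamonds for the median of all genes with a mean CPM of at least 1. COX6B2 and COX7B2 are not drawn. The boxes lie below 0 in 6 calves, straddle it in treated replicate 1 and lie above it in control replicate 2.

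Complex I, NADH dehydrogenase, was led by NDUFA4 at a mean of 1270.4 TPM, with NDUFB8 next at 457 TPM, and NDUFV3, a small subunit near the NADH site, was lowest at 119.98 TPM. NDUFA4 ranged from 829 to 1705 TPM. NDUFV3 was also the steadiest gene of the chain, with an SD of 0.22 in log2 CPM over 16 libraries.

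NDUFS1, the largest core subunit, was listed at 109, 121, 174 and 129 TPM in control and 112, 138, 173 and 201 TPM in treated round muscle. In sirloin muscle it was at 147, 140.4, 129 and 122 TPM in control and 126, 46.5, 110.2 and 142 TPM in treated calves. Treated replicate 2, at 46.5 TPM, lay far below every other library, and the diets overlapped in both muscles. It had the smallest p of complex I in sirloin muscle, with a log2 fold change of -0.52 ± 0.31 (SE; edgeR, unadjusted p = 0.121, adjusted p = 0.876). Without treated replicate 2 the value was -0.27 ± 0.19.

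In round muscle the smallest p of complex I belonged to NDUFA3, an accessory subunit, at 472, 284, 386 and 298 TPM in control and 538, 426, 536 and 504 TPM in treated calves. Treated calves had the higher values except that treated replicate 2 lay below control replicate 1. The log2 fold change was 0.37 ± 0.26 (SE; edgeR, adjusted p = 0.864), and 0.19 ± 0.25 without control replicate 2.

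NDUFV1 was at 246, 219, 263 and 209.7 TPM in control and 355, 237, 385 and 267 TPM in treated round muscle, with overlapping diets and a log2 fold change of 0.32 ± 0.25 (SE), which was 0.19 ± 0.27 without control replicate 2.

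NDUFA1, a small membrane subunit, had the smallest p of the unblocked comparison of muscles in complex I. It was at 230.3, 151, 224 and 306 TPM in control and 215, 181, 209.8 and 284 TPM in treated round muscle, and at 168, 191, 197 and 196 TPM in control and 217, 122, 175 and 223 TPM in treated sirloin muscle. The log2 difference of sirloin over round was -0.37 ± 0.19 (SE; edgeR, unadjusted p = 0.0611, adjusted p = 0.809).

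Complex II, succinate dehydrogenase, belongs to the citric acid cycle as well and has no subunit encoded by mitochondrial DNA. SDHB, its iron-sulfur subunit, had the highest mean level at 746 TPM, followed by the flavoprotein SDHA at 391, the membrane anchor SDHD at 267 and the anchor SDHC at 137 TPM. SDHA was at 352, 332, 416 and 312 TPM in control and 513, 424, 526 and 397 TPM in treated round muscle. Of the treated calves, replicate 4 alone lay within the control range, and the log2 fold change was 0.28 ± 0.24 (SE; edgeR, adjusted p = 0.892), or 0.16 ± 0.25 without control replicate 2.

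In sirloin muscle SDHA was at 412, 381, 375 and 364 TPM in control and 398, 232, 427 and 404 TPM in treated calves, with a log2 fold change of -0.26 ± 0.23. SDHD, with the smallest p of the complex there, was at 287, 296, 265 and 269.7 TPM in control and 302, 169.6, 244 and 271 TPM in treated calves. Its log2 fold change was -0.35 ± 0.22 (edgeR, adjusted p = 0.876). Treated replicate 2 was the lowest for both, and without it the values were -0.08 ± 0.18 for SDHA and -0.20 ± 0.19 for SDHD. Between the muscles SDHA had the smallest p of the complex, with a log2 difference of -0.19 ± 0.16 (edgeR, adjusted p = 0.987).

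SDHB and ATP5MC2 were the genes that lay above their own mean in that library. It was at 885, 689, 735 and 669 TPM in control and 835, 973, 689.8 and 655 TPM in treated sirloin muscle, where 973 TPM in treated replicate 2 was the highest of all 16 libraries. In round muscle it was at 919, 525, 653 and 589 TPM in control and 788, 762, 840.3 and 733 TPM in treated calves. Its log2 fold changes were 0.11 ± 0.27 (SE) in round and -0.11 ± 0.21 in sirloin muscle. They were -0.08 ± 0.25 in round muscle without control replicate 2 and -0.20 ± 0.22 in sirloin muscle without treated replicate 2.

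Complex III, cytochrome bc1, was led by UQCRB, a small subunit that binds ubiquinone, at a mean of 793 TPM, and ended with the hinge protein UQCRH at 249.8 TPM. UQCRB was at 838, 611, 978 and 1287 TPM in control and 604, 629, 832 and 1116 TPM in treated round muscle, with overlapping diets and a log2 fold change of -0.32 ± 0.32 (SE; edgeR, adjusted p = 0.912), or -0.55 ± 0.31 without control replicate 2. In sirloin muscle it was at 714, 785, 772 and 826 TPM in control and 789, 409.6, 673 and 832 TPM in treated calves. These TPM overlapped, but in TMM-normalized CPM UQCRB was the 1 of 82 genes without overlap in sirloin muscle, lower in treated calves, against 1.68% of all genes. Its log2 fold change there was -0.36 ± 0.24 (edgeR, adjusted p = 0.876), and -0.18 ± 0.18 without treated replicate 2. UQCRB also had the smallest p of the complex between the muscles, with a log2 difference of -0.33 ± 0.21 (edgeR, adjusted p = 0.881).

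UQCRFS1 was at 398, 439, 424 and 423 TPM in control and 474, 188, 358 and 379.8 TPM in treated sirloin muscle, with a log2 fold change of -0.44 ± 0.27 (SE; edgeR, adjusted p = 0.876). Treated replicate 2 was again the lowest and treated replicate 1 the highest, and without treated replicate 2 the value was -0.22 ± 0.19. The core protein UQCRC1 ranged from 193 to 491 TPM over the 16 libraries, and CYC1, the cytochrome c1 that hands electrons to cytochrome c, from 236 to 627 TPM. Their log2 fold changes were 0.26 ± 0.29 and 0.16 ± 0.30 in round, and -0.18 ± 0.25 and -0.29 ± 0.27 in sirloin muscle. Without control replicate 2 the round values were 0.15 ± 0.31 and 0.0043 ± 0.31, and without treated replicate 2 the sirloin values were -0.0098 ± 0.22 and -0.11 ± 0.23.

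Complex IV, cytochrome c oxidase, had the widest range of levels among genes with a mean of at least 1 TPM. Several of its subunits are encoded by isoform genes. COX5A and COX5B, which exist as single genes, had means of 639.9 and 987 TPM. COX5B gave the smallest p of the complex between the muscles. It was at 1227, 777, 967 and 1157 TPM in control and 1038, 903, 1306 and 1069.8 TPM in treated round muscle. In sirloin muscle it was at 1056, 966, 850.3 and 907 TPM in control and 1079, 590.3, 948 and 945 TPM in treated calves. The log2 difference of sirloin over round was -0.29 ± 0.17 (SE; edgeR, adjusted p = 0.864), and COX5B was lower in at least 7 of 8 calves.

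The muscle isoforms far exceeded their counterparts in level. COX6A2, the heart and muscle form, ranged from 429 to 976 TPM, COX7A1 from 374 to 805 TPM and COX8B from 793 to 1972 TPM. Their counterparts COX6A1, COX7A2 and COX8A, which most tissues use, were at 25.9 to 51.0, 28.8 to 136 and 34.4 to 108 TPM in 15 libraries. In those 15 libraries COX6A1 made up 2.72% to 9.14% of its pair, COX7A2 4.78% to 17.1% and COX8A 2.16% to 11.1%.

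The sirloin library of treated replicate 4 broke this pattern. COX6A1 was at 48.0, 30.7, 43.0 and 325 TPM in treated replicates 1 to 4, beside 25.9, 40.5, 35.1 and 47.3 TPM in control sirloin muscle. COX7A2 was at 72.4, 28.8, 126 and 469.8 TPM, beside 99.1, 56.5, 62.6 and 62.7 TPM. COX8A was at 106, 34.4, 63.4 and 239 TPM, beside 36.7, 108, 51.8 and 54.9 TPM. All 3 genes had their highest value of all libraries in that 1 library, 8.02-fold, 7.49-fold and 4.34-fold above the median of the other 15.

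The muscle isoforms were not low in that library. COX6A2 was at 637 TPM and COX7A1 at 669.6 TPM there, both within the range of the other libraries, and COX8B at 1972 TPM was the highest of all. COX6A1 thus made up 33.8% of its pair, COX7A2 41.2% of its pair and COX8A 10.8%, the last of which lay within the range of the others. The smallest p of complex IV in sirloin muscle was that of COX6A1, with a log2 fold change of 1.42 ± 0.67 (SE; edgeR, unadjusted p = 0.0571, adjusted p = 0.876), and those of COX7A2 and COX8A were 1.12 ± 0.67 and 0.66 ± 0.52. Without treated replicate 4 the 3 values were -0.035, -0.067 and -0.035.

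That library is the one with the adipocyte markers. ADIPOQ, the adipokine adiponectin, was at 678 TPM there and at most 1.13 TPM elsewhere, and FABP4, the fatty acid binding protein of fat cells, at 2825 TPM and at most 11.9 TPM elsewhere. All 5 markers of the list had their highest value in it. UCP1, the uncoupling protein of brown fat, was looked up after these values were seen and was at 1098 TPM there and at most 2.71 TPM elsewhere, while CIDEA was at 1.76 TPM and DIO2 at 0.114 TPM. The part of fat cells in the levels of COX6A1, COX7A2 and COX8A was not tested.

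**Figure D5:**
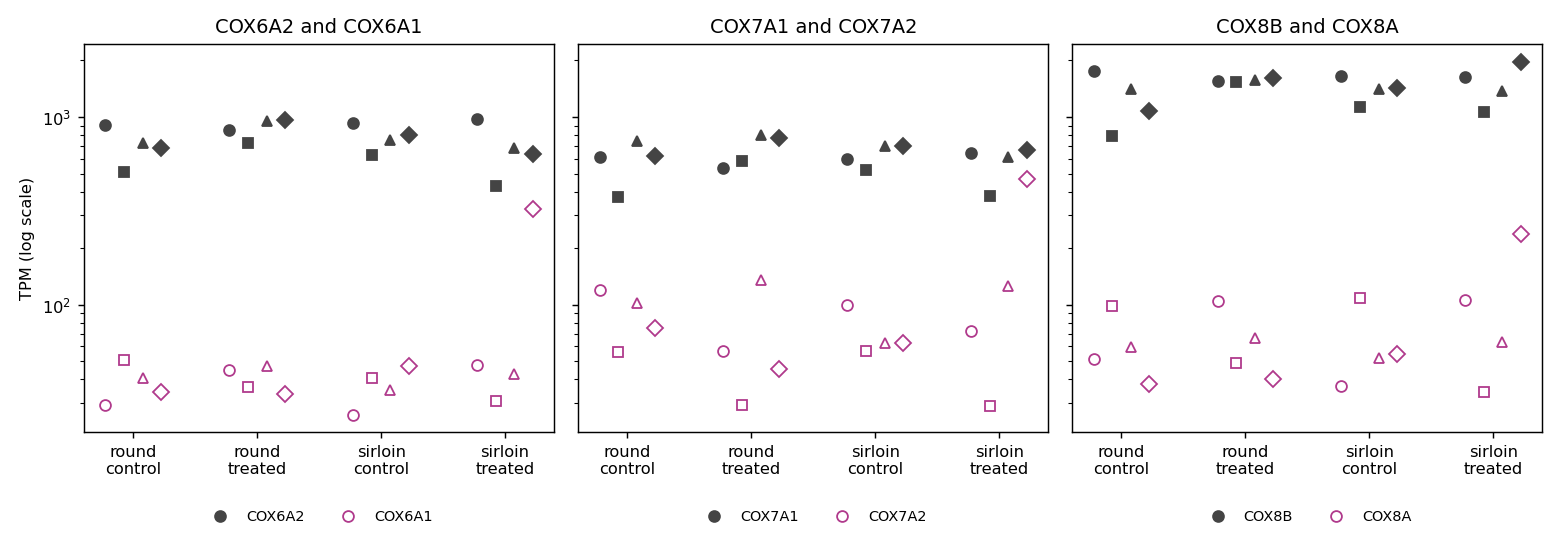
TPM on a log axis of the muscle isoforms COX6A2, COX7A1 and COX8B (filled) and their counterparts COX6A1, COX7A2 and COX8A (open) in the 16 libraries, by muscle and diet, with circles, squares, triangles and diamonds for replicates 1 to 4. The open diamonds of treated sirloin muscle, at 325, 469.8 and 239 TPM, lie above all other open symbols.

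COX7A2 was also the most variable gene of the chain, with an SD of 0.98 in log2 CPM over 16 libraries and 0.74 without the sirloin library of treated replicate 4. In round muscle it was at 119.7, 56.0, 102 and 75.1 TPM in control and 57.0, 29.3, 136 and 45.2 TPM in treated calves. Both muscles of treated replicate 2 had the lowest values, 29.3 and 28.8 TPM. The diets overlapped, and the log2 fold change in round muscle was -0.50 ± 0.45 (SE; edgeR, adjusted p = 0.892). It was -0.74 ± 0.46 without control replicate 2 and -0.26 ± 0.42 without treated replicate 2.

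COX6B1, which joins the monomers of the complex IV dimer, ranged from 449.9 to 881 TPM, and COX7B, a single-span membrane subunit, from 131 to 396 TPM. Their counterparts COX6B2 and COX7B2, known from testis, were hardly detected. COX6B2 had 2 and 5 reads in control replicates 1 and 2 in round muscle, 2 reads in treated replicate 3 in sirloin muscle and 0 in the other 13 libraries. It carried the smallest p of complex IV in round muscle (edgeR, unadjusted p = 0.0607), which rests on those 7 reads. COX7B2 had 0 to 46 reads per library, at most 2.77 TPM, and was at 0 in 5 libraries, all of treated calves. COX8C, also known from testis, had 0 reads in all 16 libraries, which allows a level of up to 0.00338 CPM by counting error alone (3 reads over all libraries).

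Complex V, ATP synthase, was led by the catalytic subunit beta, ATP5F1B, at a mean of 1229 TPM and by subunit alpha, ATP5F1A, at 1114 TPM, and ended with ATP5MJ, a small membrane subunit, at 347 TPM. ATP5F1A was at 1270.3, 1352, 939 and 1049.9 TPM in control and 1310.3, 526, 1006 and 1088 TPM in treated sirloin muscle. Treated replicate 2 lay below all others, and the log2 fold change was -0.40 ± 0.28 (SE; edgeR, adjusted p = 0.876). ATP5F1B, at 693 to 1705 TPM, gave -0.32 ± 0.25 in sirloin and 0.13 ± 0.25 in round muscle. Without treated replicate 2 the sirloin values were -0.18 ± 0.21 for ATP5F1A and -0.14 ± 0.20 for ATP5F1B, and without control replicate 2 the round value of ATP5F1B was 0.049 ± 0.27.

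ATP5F1D, the delta subunit of the central stalk, had the smallest p of the complex in round muscle. It was at 854, 648, 691 and 487 TPM in control and 1152, 697, 1059 and 737 TPM in treated calves, with overlapping diets and a log2 fold change of 0.36 ± 0.29 (SE; edgeR, adjusted p = 0.891), or 0.25 ± 0.31 without control replicate 2. ATP5IF1, which inhibits the reverse reaction of the enzyme, ranged from 619 to 1028 TPM and had the smallest p of the complex between the muscles, with a log2 difference of -0.24 ± 0.15 (edgeR, adjusted p = 0.887).

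ATP5MC1, ATP5MC2 and ATP5MC3 encode the same mature c subunit of the rotor ring with different import sequences. ATP5MC2 was the most abundant in all 16 libraries, with 34.3% to 74.2% of the 3 together. Its share was 43.5% ± 7.45 (SD, n = 4) in control and 47.9% ± 8.31 in treated round muscle, and 49.7% ± 2.14 and 55.6% ± 12.6 in sirloin muscle. The highest share belonged to the sirloin library of treated replicate 2, where ATP5MC2 was at 1211 TPM, within the range of the other libraries, while ATP5MC1 at 244 and ATP5MC3 at 177 TPM were at their lowest. Without that library the share of ATP5MC2 ranged from 34.3% to 58.9%.

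The nuclear genes were set beside the 13 subunits encoded by mitochondrial DNA, whose transcripts made up 12.1% to 24.3% of all TPM. Their share was 14.5%, 24.3%, 19.97% and 23.1% in control and 12.9%, 16.9%, 21.97% and 14.1% in treated round muscle. In sirloin muscle it was 12.4%, 24.2%, 18.5% and 15.6% in the control calves, against 13.1%, 13.2%, 12.1% and 16.1% in the treated ones. The highest share in each muscle was that of control replicate 2, whose nuclear subunit genes were the lowest of round muscle.

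All 13 mitochondrial genes had a negative log2 fold change in both muscles, with medians of -0.56 in round and -0.54 in sirloin muscle beside 0.04 and -0.17 for the nuclear genes. At an unadjusted p of 0.05 edgeR called 2 of 13 (ND2 and ND6) in round and 9 of 13 in sirloin muscle, all lower. Among all genes, 539 of 21677 in round and 352 of 21776 in sirloin muscle were lower by that rule. After adjustment 0 of the 13 passed in either muscle. Without control replicate 2 edgeR called 3 in round and 2 in sirloin muscle, with medians of -0.47 and -0.37. In sirloin muscle it called 7 without treated replicate 2 and 12 without treated replicate 4, with medians of -0.55 and -0.62. Counts over all genes are not given for these fits without a calf, so these calls cannot be set against a background. These genes are transcribed together and are not independent of each other, and the difference between nuclear and mitochondrial genes was not tested. As the share of mitochondrial transcripts sets how much of the TPM is left for other genes, the nuclear genes were also expressed relative to the TPM without them. They then made up 4.25% ± 0.466 (SD, n = 4) and 4.46% ± 0.688 in control and treated round muscle, and 4.02% ± 0.298 and 3.84% ± 0.916 in sirloin muscle.

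Genes near the chain in function gave few calls. Of 54 assembly factors of complexes I to V, 41 had a positive log2 fold change in round muscle (median 0.15) and 18 in sirloin muscle (median -0.10). At an unadjusted p of 0.05 edgeR called 1 in round muscle, UQCC1 of complex III assembly, which was higher in treated calves, and 0 in sirloin muscle. UQCC1 was not called without treated replicate 4, and without treated replicate 2 the sirloin values were positive for 35 of the 54, with a median of 0.04. Between the muscles TMEM126B and NDUFAF5 of complex I assembly and HIGD1A of complex IV assembly were lower in sirloin muscle by that rule, with log2 differences of -0.54, -0.51 and -0.76. These 3 of 54 stand beside 3.3% of all genes lower by that rule. The 13 citric acid cycle genes gave 0 calls in either muscle, with medians of 0.17 in round and -0.38 in sirloin muscle, where 0 of 13 values were positive. The sirloin median was -0.13 without treated replicate 2, and without treated replicate 4 DLD and SUCLA2 were called as lower.

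The 7 subunits and carriers outside the rule, among them COX4I1 and cytochrome c (CYCS), gave 0 calls, with medians of 0.13 and -0.16. The sirloin median was 0.03 without treated replicate 2, and without control replicate 2 NDUFA4L2 was called as higher in round muscle. Of 10 genes of mitochondrial transcription and its control, only TFB1M was called, at 0.60 ± 0.26 (SE) in round muscle, and it was not called without treated replicate 4. None of these lists held a gene with an adjusted p under 0.05 in the 4 comparisons over all calves. Calls in fits without a calf are given here without the count over all genes.

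PPARGC1A, the coactivator that drives transcription of many of these genes in muscle, was at 29.4, 9.97, 132 and 97.8 TPM in control and 6.21, 16.7, 12.4 and 10.7 TPM in treated round muscle. In sirloin muscle it was at 185, 11.7, 34.3 and 141 TPM in control and 10.6, 8.88, 19.2 and 17.7 TPM in treated calves. Control replicate 2 lay within the treated range in both muscles. The log2 fold changes were -2.71 ± 0.66 (SE; edgeR, adjusted p = 0.864) and -2.90 ± 0.72 (edgeR, adjusted p = 0.876), and DESeq2 called the gene in both muscles. The subunit genes had medians of 0.04 and -0.17 over the same calves.

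All 9 slow fibre markers had a positive log2 fold change in round muscle. There edgeR called 4 of 9 (MYH7, TNNC1, TNNI1 and ATP2A2) as higher in treated calves at an unadjusted p of 0.05 and 0 after adjustment. Among all genes, 417 of 21677 were higher by that rule. Without treated replicate 2 edgeR called 0 of 9, without control replicate 2 it called 1 (ATP2A2) and without treated replicate 4 it called 6. The median log2 fold change of 0.86 was 0.35 without treated replicate 2, 0.74 without control replicate 2 and 1.04 without treated replicate 4. Counts over all genes are not given for these fits either. Their summed level was 84955 TPM in treated replicate 2 and 15860 to 41152 TPM in the other 7 round libraries. The median deviation of the subunit genes in that library was -0.32, the second lowest of round muscle. The part of fibre type in the levels of the subunit genes was not tested.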

How the data were processed

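Gene-level read counts and TPM of 34109 genes were used from 16 libraries. Per the methods of the study, the authors used Trimmomatic for trimming, SortMeRNA against rRNA, HISAT2 with Bowtie2 for alignment and StringTie for quantification, whereas the submitters' processing notes name STAR, featureCounts and the build ARS-UCD1.2. The sources also differ on the libraries, poly(A) selection in the labels and removal of rRNA and globin RNA in the methods, which bears on transcripts from mitochondrial DNA. The deposited counts are whole numbers that the authors did not normalize, and the deposited TPM are the authors' values per transcript length and library total. How reads shared with processed pseudogenes, of which many small subunits have some, were counted is not given in the sources used here. The TPM of both libraries of control replicate 2 summed to 1000000 and those of the others to 999756 to 999858. Deposited comparison tables hold the authors' fold changes and p-values and were not used.

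Symbols came from a RefSeq table of ARS-UCD2.0 (names alone, no coordinates), which held 90.2% of the gene IDs. The subunit genes, marker genes and pathway lists were chosen with earlier results of these data known. Counts were tested with edgeR 4.0.16 in R 4.3.3 (TMM factors, glmQLFit, glmQLFTest, two-sided) for every gene with 1 count or more in the libraries fitted, adjusted over all genes tested by the Benjamini-Hochberg method. Each diet comparison used the 8 libraries of a muscle without covariates, and comparisons between muscles used all 16 libraries in 4 groups. A standard error is the size of the log2 fold change over the root of its F statistic, and intervals are at 95%. Deviations used log2(CPM + 0.5), and complex levels log2(TPM + 1). Libraries of the same calf deviated from their group means together, with correlations over genes of 0.300 to 0.710 in 8 calves. Pairs of different calves across the muscles gave -0.443 to 0.380, a range that holds the lowest same-calf value, that of treated replicate 4. Named were, for each complex and comparison, the gene of smallest p, the genes of highest and lowest level, core subunits, isoform pairs, undetected genes and PPARGC1A. NDUFB5 and the genes of the blocked fit, NDUFB8, DLD, SUCLA2, NDUFA4L2, UCP1, CIDEA and DIO2 were named after their values were seen. Alternatives were DESeq2 1.42.0, limma-voom (limma 3.58.1), other scalings, filterByExpr, a replicate or calf block, both muscles in a single fit and leaving out each calf. The fits without a block were run on simulated counts with known changes, larger than those of nearly all subunit genes, and without a calf effect. The blocked fits were not run on them, and the outcome does not bear on differences as small as those given here. Replicates are separate calves. Sequences and promoter motifs were not analysed here, and the values of 1 subunit gene are counted but not reported by name.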

Additional observations from a re-analysis of the deposited data

Results flagged for a closer look

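A library was singled out where its gap to the nearest of the other 3 libraries of its group relative to the range of the group passed Dixon's 95% critical value. The summed levels of the 5 complexes and the named subunit genes gave 156 groups of 4, of which 10 met this condition, beside about 1 in 20 by chance. In treated sirloin muscle, COX6A1 stood apart in replicate 4 (325 TPM, others 30.7 to 48.0), SDHA in replicate 2 (232 TPM, others 398 to 427), the summed complex II in replicate 1 (1717 TPM, others 1456 to 1500.1), and COX6B2 in replicate 3 (0.0825 TPM, others listed at 0). In control sirloin muscle, replicate 1 stood apart in COX7A2 (99.1 TPM, others 56.5 to 62.7), NDUFA4 (1425 TPM, others 1135 to 1176) and ATP5MJ (313 TPM, others 336 to 340.1). In control round muscle, replicate 2 stood apart in COX6B1 (535 TPM, others 765 to 778) and UQCRH (168 TPM, others 269 to 285), and replicate 4 in ATP5F1B (935 TPM, others 1229.9 to 1269.6).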

How the results depend on the processing

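No subunit gene reached an adjusted p of 0.05 in any comparison under any alternative run. The number at an unadjusted p of 0.05, which was 0 for the diets in each muscle and between the muscles and 1 for the difference of the diet effects, moved as follows. In round muscle it was 1 with limma-voom, with the replicate block and with both muscles in a single fit, and 0 to 1 when each calf was left out. In sirloin muscle it was 1 with library totals only, with limma-voom and with both muscles in a single fit, and 0 to 4 when each calf was left out. Between the muscles it was 1 with DESeq2, 22 with the calf as the replicate block, and 0 to 6 when each calf was left out; with the block and without each calf, chosen after seeing the data, it was 8, 42, 6 and 4 without control replicates 1 to 4 and 31, 7, 9 and 17 without treated replicates 1 to 4. For the difference of the diet effects it was 0 with filterByExpr and with DESeq2, 5 with the replicate block, and 0 to 3 when each calf was left out. Counts over all genes are not given for the fits without a calf that had no block.

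Calves of the 2 diets with the same replicate number are not stated to be pairs. Their libraries had correlations of -0.0710 to 0.244 in round and -0.221 to 0.220 in sirloin muscle. These cannot decide on pairing, as different calves across the muscles spanned -0.443 to 0.380 and the lowest same-calf value was 0.300. The replicate block of the diet comparisons changed no adjusted call of a subunit gene. When each calf was left out, the median log2 fold change of the subunit genes lay between -0.14 and 0.14 for round and between -0.29 and -0.03 for sirloin muscle. COX6A1, COX7A2 and COX8A reversed in sirloin muscle without treated replicate 4, to -0.035, -0.067 and -0.035, and reached 1.74, 1.48 and 1.02 at most when another calf was left out. The treated minus control difference of complex II in sirloin muscle, -0.04 in log2(TPM + 1), was -0.21 in TMM-normalized CPM, and the other complex differences moved by less than the spread between libraries, also with TPM taken without mitochondrial genes, an alternative added after seeing the data. PPARGC1A passed the adjusted threshold with DESeq2 alone, at -2.73 in round and -2.91 in sirloin muscle. The cause of these moves was not tested. With 4 calves a group, the median standard error of 0.27 and 0.24 in log2 fold change limits what could be seen in round and sirloin muscle, and depth does so for COX6B2, COX7B2 and COX8C. The description of promoter motifs was not run.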
